A study of Homo sapiens with 9 samples.

Results

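Nuclear pore proteins and soluble transport receptors were examined as a set of 50 genes out of 61853 listed, 28 nucleoporins, 20 transport receptors and the 2 Ran cycle genes RAN and RCC1. They were taken from a list of gene symbols, drawn up with earlier results of these data known, and all 50 were found and passed the expression filter. The values come from 293T cells, a human cell line of embryonic kidney origin in which SV40 large T antigen is expressed. The tested libraries are 3 labelled DIS3-sh1, given an shRNA against the exosome nuclease DIS3 and labelled as a DIS3 knockdown, and their controls are 3 labelled Scramble, given a scramble shRNA and labelled WT. The series also labels 3 DIS3-sh2 samples, which are not analysed here, so each result rests on 1 shRNA, and an effect of this shRNA on other targets cannot be told apart from the loss of DIS3. The time after shRNA delivery and the way it was delivered are not given in the sources used here.

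All traffic between nucleus and cytoplasm passes through nuclear pore complexes, built from nucleoporins arranged in stacked rings around a channel lined with phenylalanine-glycine (FG) repeats. Importins and exportins carry cargo through this channel, and the small GTPase RAN sets the direction: its exchange factor RCC1 sits on chromatin, so that RAN carries GTP in the nucleus, where it releases import cargo and is needed to load export cargo. Messenger RNA export also ends at the pore, on its cytoplasmic filaments, and nuclear RNA that is not exported is open to decay by the exosome.

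The libraries held 19800892 to 21100677 counts in DIS3-sh1 and 20722775 to 23532148 counts in Scramble. Levels are TMM-scaled CPM (counts per 1e6 counts of a library), log2 fold changes are DIS3-sh1 over Scramble ± SE, and adjusted p-values are from edgeR's quasi-likelihood test, two-sided, over 19591 tested genes, with 0.05 as the threshold for a call. DIS3 measured 26.6, 27.8 and 27.9 CPM in the DIS3-sh1 libraries, against 176, 186 and 177 CPM in the Scramble libraries, a log2 fold change of -2.71 ± 0.04 (adjusted p = 6.76e-30). The 293T markers VIM, NEFL, NEFM, KRT8, KRT18, PAX2 and LIN28B had counts in all 6 libraries. KRT8 differed most, at 32.6 ± 0.81 CPM in DIS3-sh1 and 4.65 ± 0.22 CPM in Scramble. CD3E, HBB and KRT5, markers of other cell types, had 0 counts throughout, and the 8 such markers together made up 2.04 to 2.35 CPM in DIS3-sh1 and at most 1.08 CPM in Scramble, most of it PMEL. Small structural RNA took 8.25% to 9.38% of the counts in DIS3-sh1, most in replicate 1, and 4.95% to 5.15% in Scramble. Mitochondrial genes took 2.78% in DIS3-sh1 replicate 1 and 3.43% and 3.47% in replicates 2 and 3, against 2.20% to 2.23% in Scramble. With small structural, ribosomal and mitochondrial genes left out of the fit, the median log2 fold change of the 50 genes was -0.41, as with them. The part of the marker differences in the results was not tested.

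Most genes of nuclear transport were lower after DIS3-sh1. Of the 50, 41 fell, 6 rose and 3 did not pass the test, with a median log2 fold change of -0.41. Over all tested genes, 67.0% were called in either direction, 32.6% lower and 34.5% higher, with a median of 0.02. The genes of the set are well expressed, with mean levels of 21.3 to 806 CPM and at least 354 counts in every library. Among the 8002 coding genes whose mean level was at or above that of the lowest member, 81.5% were called, 51.8% lower and 29.7% higher, with a median of -0.13. The share called lower in the set, 82.0%, was above both of these shares. The coding background has only a lower limit of level, includes the 50 and was not matched to their levels. How far level accounts for the difference was not tested. The DIS3-sh1 and Scramble libraries did not overlap for 49 of the 50, against 69.8% of all tested genes and 82.5% of those coding genes. These are shares of the RNA in each library, and fewer transcripts per cell cannot be told apart from more RNA of other kinds.

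**Figure D1:**
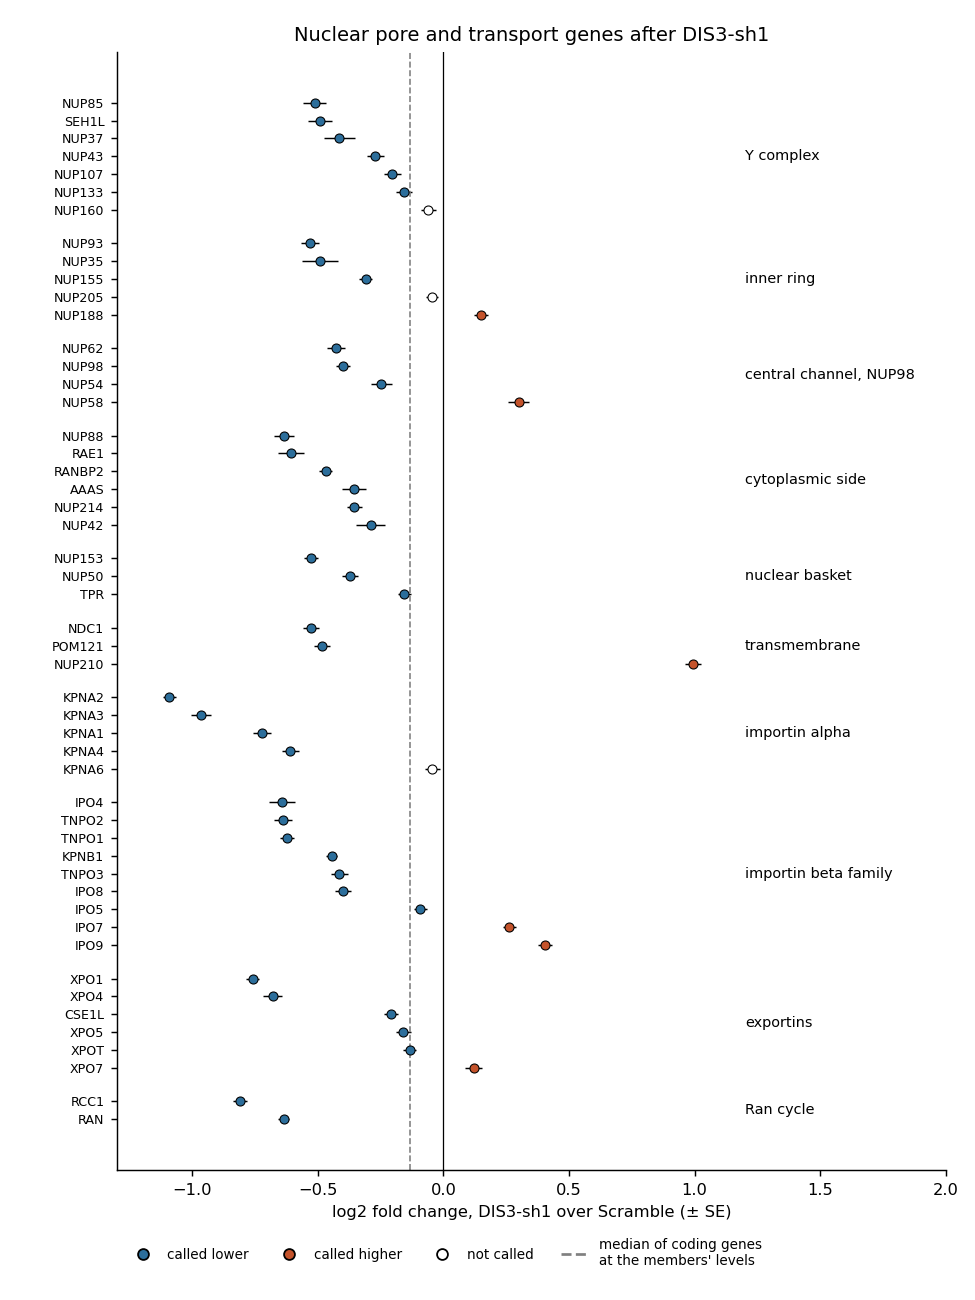
Log2 fold change of each of the 50 genes, DIS3-sh1 over Scramble, with its SE (horizontal bars), grouped by role. Filled points passed the test and open points did not. The dashed line at -0.13 is the median of coding genes at or above the level of the lowest member. Most points lie to its left, with NUP210 far to the right at 0.99.

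**Figure D2:**
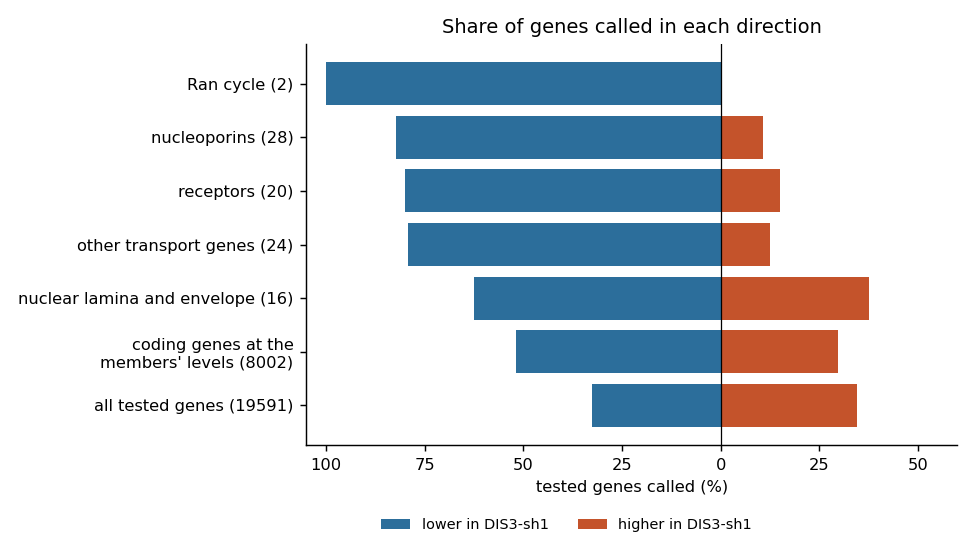
Share of tested genes called lower (left bars) or higher (right bars) in DIS3-sh1, in percent, for the transport genes by class, for 2 further lists and for 2 backgrounds, with the number tested in brackets. Nucleoporins and receptors have longer left bars than the coding genes at or above the level of the lowest member. Of those genes, which were not matched to the transport genes by level, 51.8% were called lower.

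Falls of at least 1.5-fold were mostly among the receptors and the Ran cycle genes. This cut and the pooling of these 2 classes were not among the planned comparisons. Of the 22 receptors and Ran cycle genes, 11 fell by at least 1.5-fold, and of the 28 nucleoporins, 2 did. Of the coding genes at or above the level of the lowest member, 14.7% fell that far. Under upper-quartile scaling, an alternative chosen for this count after the values were seen, 6 of the 22 and 0 of the 28 did, against 10.5% of the coding genes. Without DIS3-sh1 replicate 2 or without Scramble replicate 3, 1 nucleoporin did. The median log2 fold changes lay closer together, at -0.43 for receptors and -0.36 for nucleoporins, with -0.72 for the Ran cycle. The nucleoporins NUP93, NDC1, NUP153 and NUP85 fell by 0.51 to 0.53 on the log2 scale, short of the cut. Summed over genes, nucleoporins made up 4683 ± 5.12 CPM in DIS3-sh1 and 5435 ± 20.2 CPM in Scramble, and the 20 receptors made up 5046 ± 57.7 CPM in DIS3-sh1 and 6393 ± 34.2 CPM in Scramble (SD, n = 3 each). The Ran cycle genes made up 814 ± 3.88 CPM in DIS3-sh1 and 1304 ± 2.72 CPM in Scramble. The whole set made up 10543 ± 53.1 CPM in DIS3-sh1 and 13133 ± 56.4 CPM in Scramble. The sums did not overlap between the groups for any of these classes.

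The promoter regions of the genes with the largest change in a class are shown. These genes are KPNA2 for the importins, XPO1 for the exportins, RCC1 for the Ran cycle and, as the only large increase, NUP210. Each region runs 5′ to 3′ on the gene's strand, from 250 bases before to 50 bases after the RefSeq start on GRCh38.p14. Capitals mark matches, on either strand, to CCAAT, to the ETS motif CCGGAAGT or to the cell cycle homology element TTTGAA, and the other motifs searched did not match these 4 regions.
KPNA2, chr17:68035485-68035784, plus strand: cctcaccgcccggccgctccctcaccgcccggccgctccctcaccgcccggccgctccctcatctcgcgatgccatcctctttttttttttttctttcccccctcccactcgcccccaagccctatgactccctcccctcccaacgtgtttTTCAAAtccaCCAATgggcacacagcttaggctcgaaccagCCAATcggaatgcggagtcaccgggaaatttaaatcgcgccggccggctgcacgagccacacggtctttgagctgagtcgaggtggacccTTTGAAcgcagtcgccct
XPO1, chr2:61538307-61538606, minus strand: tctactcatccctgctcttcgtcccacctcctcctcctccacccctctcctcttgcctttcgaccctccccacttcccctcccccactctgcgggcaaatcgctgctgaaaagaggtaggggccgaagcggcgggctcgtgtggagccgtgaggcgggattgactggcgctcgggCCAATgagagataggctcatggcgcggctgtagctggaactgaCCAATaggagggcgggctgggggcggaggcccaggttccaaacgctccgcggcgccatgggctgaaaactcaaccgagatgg
RCC1, chr1:28505793-28506092, plus strand: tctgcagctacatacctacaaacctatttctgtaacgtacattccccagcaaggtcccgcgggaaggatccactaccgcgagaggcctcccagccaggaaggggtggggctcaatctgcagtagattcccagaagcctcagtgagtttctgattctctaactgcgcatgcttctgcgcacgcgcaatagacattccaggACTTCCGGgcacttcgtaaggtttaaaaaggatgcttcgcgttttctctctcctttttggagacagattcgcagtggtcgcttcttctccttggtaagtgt
NUP210, chr3:13420273-13420572, minus strand: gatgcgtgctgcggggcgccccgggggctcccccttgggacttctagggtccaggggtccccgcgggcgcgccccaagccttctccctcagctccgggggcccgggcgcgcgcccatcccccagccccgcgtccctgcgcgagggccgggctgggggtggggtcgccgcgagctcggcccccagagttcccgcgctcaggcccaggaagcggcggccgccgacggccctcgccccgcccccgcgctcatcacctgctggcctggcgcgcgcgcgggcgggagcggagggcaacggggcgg

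KPNA2 holds 2 CCAAT boxes and 2 TTTGAA elements, and XPO1 holds 2 CCAAT boxes. The RCC1 window holds 1 ETS motif, and no match was found in the NUP210 window. The RCC1 window lies at the 5′ end of the annotated gene, which shares 242 exon bases with SNHG3 on the same strand. Which of these genes the window serves was not tested. Promoter windows were found for 46 of the 50 genes. Their median GC content was 62.9%, against 58.3% over 27305 human promoter windows of the same length. Those windows were not limited to coding genes expressed at the levels of the 50. Whether GC content or motif shares differ from such genes was not tested. The ETS motif was in 8 of the 46 windows (17.4%), against 4.44% of all windows. The palindromic NRF1 motif was in 3 (6.52%), against 1.36%, and the E-box CACGTG in 7 (15.2%), against 7.43%. CCAAT was in 20 (43.5%), against 35.7%, TTTGAA in 10 (21.7%), against 15.4%, and the TATA box TATAAA in 1 (2.17%), against 12.0%. The windows with an ETS motif belong to genes that fell (IPO4, NUP35, NUP54, POM121, RCC1, TNPO3), to one that rose (NUP58) and to one that was not called (NUP160). These matches describe the letters of the windows and were not set against binding data. Whether any motif goes with the direction of change was not tested.

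The Y complex, the coat of the outer rings of the pore, was modestly lower. Of 7 subunits, 6 fell, 0 rose and NUP160 did not pass the test, with a median of -0.27. The shares to set beside this and the later counts by role are those of coding genes at or above the level of the lowest member. Of these, 51.8% were called lower and 29.7% higher. NUP85, a core subunit of the short arm of the Y, had 72.8, 65.4 and 64.3 CPM in the DIS3-sh1 libraries, against 99.4, 97.3 and 92.4 CPM in the Scramble libraries. All 3 DIS3-sh1 libraries lay below the Scramble libraries, with a log2 fold change of -0.51 ± 0.05 (adjusted p = 2.4e-11). SEH1L, its partner, which is also part of the GATOR2 complex of nutrient sensing, had 49.8, 54.4 and 50.5 CPM in DIS3-sh1 and 70.9, 73.5 and 72.7 CPM in Scramble (-0.49 ± 0.05). NUP37 (-0.41 ± 0.06) and NUP43 (-0.27 ± 0.03), the peripheral beta-propeller subunits, fell as well. Of the large stem subunits, NUP107 fell by 0.20 and NUP133 by 0.16 on the log2 scale. NUP160, which changed least, had 231 ± 4.91 CPM in DIS3-sh1 and 241 ± 2.75 CPM in Scramble (SD, n = 3 each, -0.06 ± 0.03, adjusted p = 0.0651). Its sign turned with upper-quartile scaling, under which the median of all genes was 0.10 in place of 0.02.

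Inner ring genes split by subunit. Of 5, NUP93, NUP35 and NUP155 fell, NUP188 rose and NUP205 was not called. NUP93, which anchors the channel nucleoporins to the scaffold, measured 96.6, 96.9 and 94.7 CPM in DIS3-sh1 and 137, 138 and 142 CPM in Scramble, a log2 fold change of -0.53 ± 0.04 (adjusted p = 2.42e-14). NUP35, a membrane-binding subunit and the lowest of the 50 genes per length, had 18.5, 18.0 and 16.8 CPM in DIS3-sh1 and 25.8, 24.7 and 24.3 CPM in Scramble (-0.49 ± 0.07). NUP155, a membrane-proximal scaffold subunit, fell by 0.31. The libraries of the 2 groups were apart for all 3. NUP188 and NUP205, the largest inner ring subunits, are related alpha-solenoid proteins. NUP188 stood at 327, 313 and 317 CPM in DIS3-sh1 and 287, 285 and 291 CPM in Scramble, a small increase of 0.15 ± 0.03 (adjusted p = 1.63e-05). NUP205 had 512 ± 5.47 CPM in DIS3-sh1 and 528 ± 7.02 CPM in Scramble (SD, n = 3 each, -0.04 ± 0.02, adjusted p = 0.106), and its sign also turned with upper-quartile scaling.

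The FG nucleoporins of the central channel went in both directions. NUP62, the founding member of the channel trimer, measured 109, 109 and 111 CPM in DIS3-sh1 and 151, 142 and 148 CPM in Scramble (-0.43 ± 0.04, adjusted p = 4.12e-12). NUP54 fell by 0.25. NUP58, the remaining subunit, was higher in every DIS3-sh1 library, at 91.3, 97.9 and 98.0 CPM in DIS3-sh1 and 75.9, 76.2 and 81.3 CPM in Scramble (0.30 ± 0.04, adjusted p = 2.77e-07). NUP98, whose transcript codes both for the mobile FG protein Nup98 and, through self-cleavage of a precursor, for the Y complex protein Nup96, measured 183, 182 and 186 CPM in DIS3-sh1 and 244, 244 and 240.4 CPM in Scramble, with no overlap (-0.40 ± 0.03, adjusted p = 1.37e-13). Gene counts cannot separate these products. Exons of NUP62 overlap those of IL4I1 and ATF5, and reads in the overlap may have been split.

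On the cytoplasmic side, where mRNPs are remodelled after export, 6 of 6 genes fell, with a median of -0.41. NUP88, which holds the NUP214 filament complex in place, gave the largest fall among the nucleoporins, with 74.4, 77.2 and 75.5 CPM in the DIS3-sh1 libraries, against 115, 122 and 116 CPM in the Scramble libraries (-0.63 ± 0.04, adjusted p = 3.35e-15). RAE1, the mRNA export factor that binds NUP98, followed with 46.4, 43.1 and 44.1 CPM in DIS3-sh1 and 64.4, 67.7 and 71.5 CPM in Scramble (-0.61 ± 0.05, adjusted p = 4.13e-12). The groups were well apart for both. RANBP2, the giant filament protein that binds RAN and acts as a SUMO ligase, fell (-0.47 ± 0.03), as did NUP214 (-0.36 ± 0.03), AAAS, which codes for ALADIN (-0.36 ± 0.05), and NUP42, a partner of the export factor GLE1 (-0.29 ± 0.06). RANBP2 has close copies in the RGPD family, whose 7 listed genes held 52.8% as many counts as RANBP2 itself. With their counts added, the log2 ratio of RANBP2 was -0.32 in place of -0.47. Reads may be split between them. NUP88 has 5294 exon bases, and its overlaps with exons of RABEP1 and RPAIN, on the other strand, sum to 988 bases. Reads in these overlaps may have been divided as well.

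All 3 genes of the nuclear basket fell. NUP153, which docks importins on the nuclear face, had 239.9, 246 and 248 CPM in DIS3-sh1 and 346, 357 and 355 CPM in Scramble (-0.53 ± 0.03, adjusted p = 3.76e-17). NUP50, which helps release importin alpha from its cargo, had 127, 128 and 127 CPM in DIS3-sh1 and 164, 167 and 165 CPM in Scramble (-0.37 ± 0.03, adjusted p = 1.06e-11). Neither gene's groups overlapped. TPR, the coiled-coil protein that builds the basket filaments, fell as well (-0.16 ± 0.03).

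The transmembrane nucleoporins held the largest increase of the set. NUP210, a membrane glycoprotein whose bulk lies in the lumen of the nuclear envelope, measured 396, 357 and 357 CPM in the DIS3-sh1 libraries, against 189, 184 and 184 CPM in the Scramble libraries. Every DIS3-sh1 library was far above every Scramble library, with a log2 fold change of 0.99 ± 0.03 (adjusted p = 1.39e-21). DIS3-sh1 replicate 1 was the highest of its group. Per kilobase of exon, the level of NUP210 in CPM was 45.2 ± 2.75 in DIS3-sh1 and 22.7 ± 0.38 in Scramble (SD, n = 3 each), and in rank it stood 10th of the 50 in DIS3-sh1 and 29th in Scramble. The other 2 transmembrane genes fell. NDC1, needed for pore assembly, had 147, 152 and 147 CPM in DIS3-sh1 and 215, 220.5 and 208 CPM in Scramble (-0.53 ± 0.03, adjusted p = 1.57e-15), and POM121, another pore membrane anchor, changed by -0.48 ± 0.03. POM121 has near-identical copies, POM121B and POM121C, which held 77.0% as many counts as POM121 itself. With their counts added, the log2 ratio of POM121 was -0.48. Reads may be divided among these genes.

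**Figure D3:**
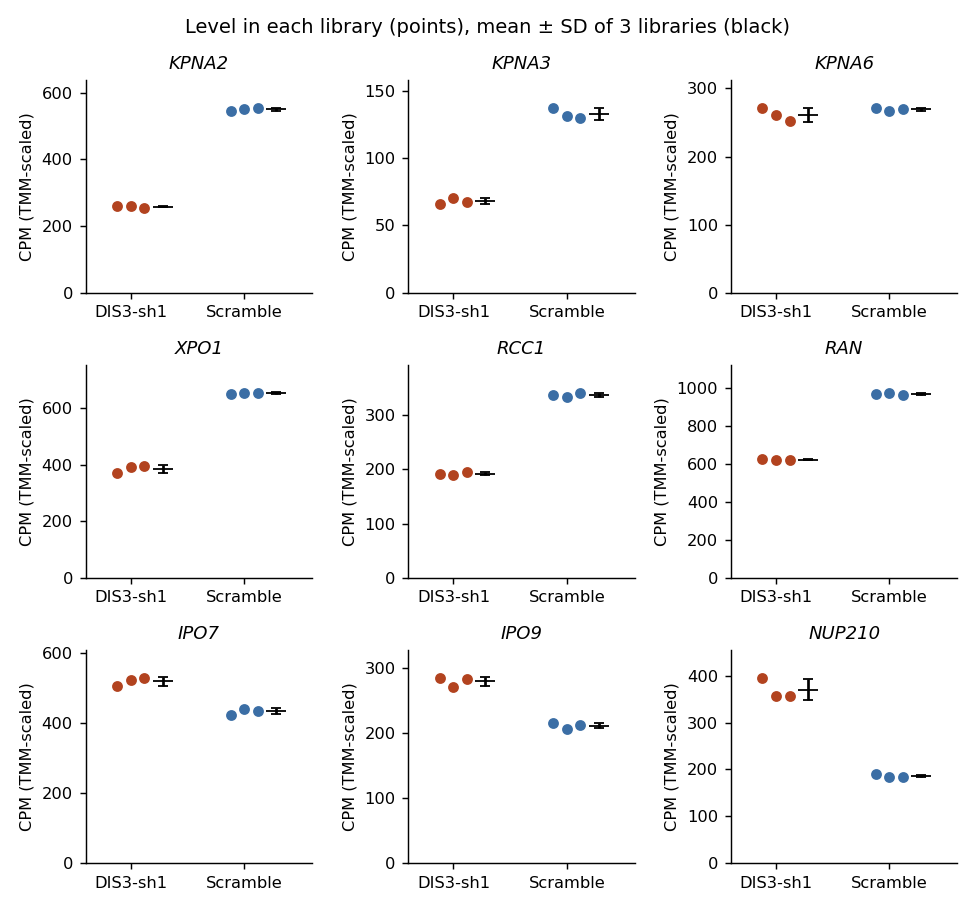
CPM in each library for 9 genes, DIS3-sh1 left and Scramble right, with points for libraries and black marks for the mean ± SD of 3; each axis starts at 0. KPNA2, KPNA3, XPO1, RCC1 and RAN are lower in every DIS3-sh1 library, IPO7, IPO9 and NUP210 are higher, and the KPNA6 groups overlap.

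Importin alpha adaptors, which recognise classical nuclear localisation signals and hand them to importin beta, held the 2 largest falls of the set, KPNA2 and KPNA3. Of 5 genes, 4 fell and KPNA6 was not called, with a median of -0.72. KPNA2, the most abundant of them per length, measured 259, 261 and 256 CPM in the DIS3-sh1 libraries, against 546, 551 and 556 CPM in the Scramble libraries. Its log2 fold change was -1.09 ± 0.03 (adjusted p = 8.6e-26), the only fall of at least 2-fold among the 50. KPNA3 stood at 66.2, 70.6 and 67.4 CPM in DIS3-sh1 and 138, 131 and 129.8 CPM in Scramble (-0.96 ± 0.04, adjusted p = 1.32e-19). KPNA1 (-0.72 ± 0.04) and KPNA4 (-0.61 ± 0.03) also fell. KPNA6 had 272, 260.4 and 252 CPM in DIS3-sh1 and 272, 267 and 269 CPM in Scramble, with overlapping groups (-0.04 ± 0.03, adjusted p = 0.185). It passed without DIS3-sh1 replicate 1 (-0.07, adjusted p = 0.016), and its sign turned with upper-quartile scaling (0.04).

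The make-up of the messages of these 5 importin alpha genes differed between the groups. Shares of the 5 genes' counts per length do not depend on scaling between libraries, and this measure was chosen after the values were seen. As parts of a whole the shares are tied to each other, so a fall of KPNA2 by itself raises the rest. KPNA5 and KPNA7, importin alpha genes of the further list below, were left out. KPNA2 made up 52.6%, 52.7% and 52.9% in DIS3-sh1, against 62.4%, 63.1% and 63.6% in Scramble. KPNA6 made up 23.2%, 22.1% and 21.9% in DIS3-sh1, against 13.1%, 12.8% and 12.9% in Scramble. The KPNA2 share was lower by 10.2 percentage points and the KPNA6 share was higher by 9.45 points, and neither pair of groups overlapped. KPNA1 (6.89% ± 0.07 in DIS3-sh1 and 6.38% ± 0.16 in Scramble) and KPNA4 (8.21% ± 0.30 in DIS3-sh1 and 7.02% ± 0.10 in Scramble) took slightly larger shares, and KPNA3 (9.75% ± 0.29 in DIS3-sh1 and 10.7% ± 0.33 in Scramble) a smaller one (SD, n = 3 each). Each difference had p = 0.1 in an exact two-sided permutation test, the smallest value that 3 against 3 libraries allow. With the longest coding transcript as the length, the differences were -9.73 points for KPNA2 and 8.42 points for KPNA6.

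**Figure D4:**
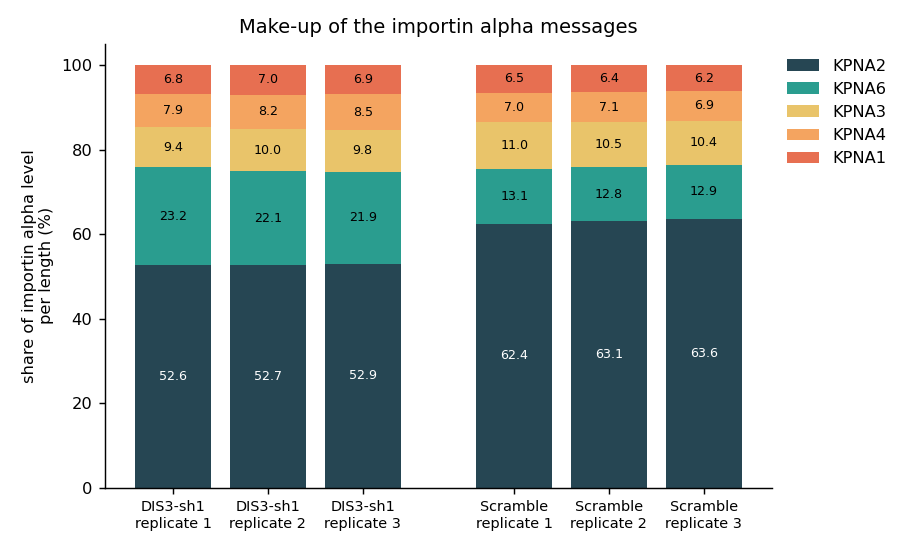
Share of each of 5 importin alpha genes in their summed counts per length, in percent, as stacked bars for the 3 DIS3-sh1 libraries (left) and the 3 Scramble libraries (right). The KPNA2 block is 52.6% to 52.9% in DIS3-sh1 and 62.4% to 63.6% in Scramble, and the KPNA6 block is 21.9% to 23.2% in DIS3-sh1 and 12.8% to 13.1% in Scramble.

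Import receptors of the importin beta family went both ways, with 7 of 9 lower and 2 higher. KPNB1, importin beta itself, the carrier for importin alpha and its cargo, measured 683 ± 4.94 CPM in DIS3-sh1 and 929.8 ± 5.09 CPM in Scramble (SD, n = 3 each), which is -0.44 ± 0.02 on the log2 scale. IPO4, a receptor for histones and ribosomal proteins, had 48.9, 44.8 and 42.7 CPM in DIS3-sh1 and 69.8, 70.0 and 73.4 CPM in Scramble (-0.64 ± 0.05, adjusted p = 1.15e-12). TNPO2, which with TNPO1 imports hnRNPs, had 97.3, 92.7 and 94.0 CPM in DIS3-sh1 and 152, 145 and 145 CPM in Scramble (-0.64 ± 0.04, adjusted p = 4.48e-16). Both were lower in every DIS3-sh1 library. TNPO1 changed by -0.62 ± 0.03, TNPO3, the receptor for SR splicing proteins, by -0.42 ± 0.03, and IPO8 by -0.40 ± 0.03. IPO5, a receptor for ribosomal proteins, fell by 0.09 ± 0.03 on the log2 scale (adjusted p = 0.00233). Under upper-quartile scaling IPO5 was no longer called (adjusted p = 0.707). IPO9, an importer and chaperone of histones H2A and H2B, rose, with 285, 271 and 282 CPM in DIS3-sh1 and 215, 207 and 211 CPM in Scramble (0.40 ± 0.03, adjusted p = 1.63e-13). IPO7, which imports ribosomal proteins among other cargo, rose as well, with 506, 524 and 530.0 CPM in DIS3-sh1 and 424, 441 and 436 CPM in Scramble (0.26 ± 0.03, adjusted p = 1.86e-10). The groups of IPO7 and IPO9 did not overlap. IPO4 has 5007 exon bases, and its exons overlap REC8 and another annotated gene. The overlaps with each gene sum to 3509 bases, where a base under both counts again, so its values are uncertain.

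Among the exportins, 5 of 6 fell and 1 rose, with a median of -0.18. XPO1, the export receptor CRM1 for leucine-rich signals, for ribosomal subunits and for some RNAs, measured 371, 394 and 395 CPM in the DIS3-sh1 libraries, against 652, 656 and 656 CPM in the Scramble libraries. The log2 fold change was -0.76 ± 0.03 (adjusted p = 1.31e-21), and the groups were far apart. XPO4 had 81.8, 79.3 and 84.8 CPM in DIS3-sh1 and 133, 133 and 128 CPM in Scramble (-0.68 ± 0.04, adjusted p = 2.94e-16). XPO5, which exports microRNA precursors, fell by 0.16 and XPOT, which exports tRNAs, fell by 0.13. XPOT was not called under upper-quartile scaling (adjusted p = 0.0723). CSE1L, which returns importin alpha to the cytoplasm, fell by 0.21. XPO7, a receptor that works in both directions, was slightly higher, at 165, 173 and 164 CPM in DIS3-sh1 and 152, 154 and 155 CPM in Scramble (0.12 ± 0.03, adjusted p = 0.0017).

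Both genes of the Ran cycle fell. RAN, the highest of the 50 genes per length in both groups, measured 627, 619 and 620.0 CPM in the DIS3-sh1 libraries, against 966, 974 and 961 CPM in the Scramble libraries (-0.64 ± 0.02, adjusted p = 2.7e-21). RCC1, its exchange factor, measured 191, 190.2 and 195 CPM in DIS3-sh1 and 336, 333 and 341 CPM in Scramble (-0.81 ± 0.03, adjusted p = 1.18e-21). Within each gene the DIS3-sh1 libraries lay close together and far below the Scramble libraries. RAN has 9 annotated pseudogene copies, which held 0.19% as many counts as RAN. RCC1 shares 242 exon bases with SNHG3, a snoRNA host gene on the same strand.

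Related genes were compared within each library, as the log2 ratio of their counts, which is free of scaling between libraries. Of 6 pairs, 5 had ratios that did not overlap between the groups. Among single coding genes at or above the level of the lowest member of the set, 82.5% had groups that did not overlap. How often the ratios of unrelated genes are apart was not tested, so the count of pairs does not set related genes apart from others. KPNA1 over KPNA6 was -1.59, -1.49 and -1.49 in DIS3-sh1 and -0.83, -0.82 and -0.88 in Scramble, a difference of -0.68 ± 0.05 (± pooled SD of a library). XPO4 over XPO7 was -1.01, -1.12 and -0.96 in DIS3-sh1 and -0.20, -0.21 and -0.28 in Scramble (-0.80 ± 0.07). IPO7 over IPO8 was 1.90, 1.92 and 1.95 in DIS3-sh1 and 1.23, 1.24 and 1.32 in Scramble (0.66 ± 0.04). In each of these pairs one gene fell while its relative rose or was not called. The ratio of KPNA3 to KPNA4 differed by -0.35 ± 0.05 and that of NUP188 to NUP205 by 0.19 ± 0.03. TNPO1 over TNPO2 differed by 0.01 ± 0.06, less than the spread between libraries (p = 0.6, adjusted p = 0.6, exact two-sided permutation test). For the other 5 pairs p was 0.1, the smallest possible, and 0.12 adjusted over the 6 pairs.

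**Figure D5:**
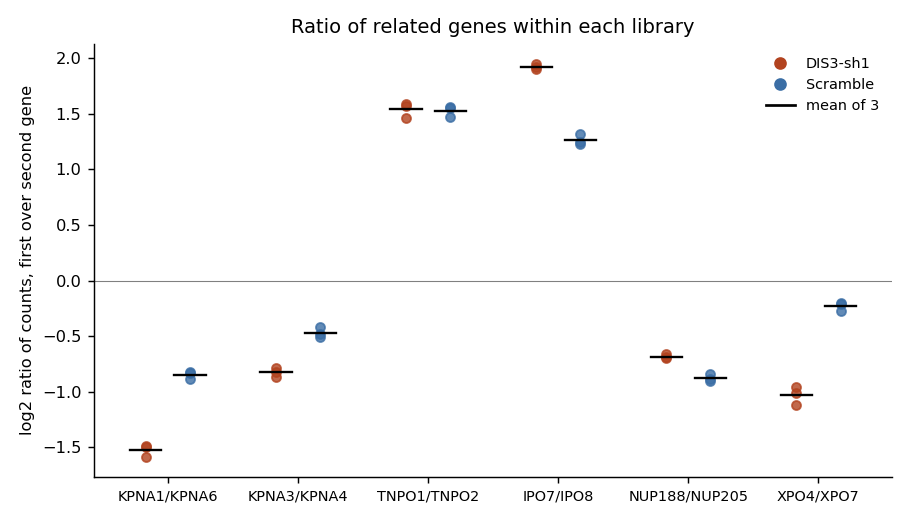
Log2 ratio of the counts of 2 related genes in each library (points, DIS3-sh1 left and Scramble right within each pair) with the mean of 3 (lines). The groups are apart in 5 pairs and overlap for TNPO1/TNPO2.

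Ordered by level per kilobase of exon in Scramble, RAN, KPNA2, KPNB1 and CSE1L came first. In CPM per kilobase, the level of RAN was 129 ± 0.84 in DIS3-sh1 and 200.4 ± 1.31 in Scramble, and that of KPNA2 82.3 ± 0.84 in DIS3-sh1 and 176 ± 1.58 in Scramble (SD, n = 3 each). KPNB1 had 89.0 ± 0.64 in DIS3-sh1 and 121 ± 0.66 in Scramble, and CSE1L had 102 ± 3.68 in DIS3-sh1 and 117 ± 0.21 in Scramble. In DIS3-sh1 the order was RAN, CSE1L, KPNB1 and KPNA2, each apart from the next by more than its SD. Levels per length rest on exon unions that count all annotated transcripts. Across the 50 genes, log2 fold change and level per length in Scramble had a Spearman's rho of 0.03, and log2 fold change and gene span a rho of 0.11, as descriptions of genes that share the same libraries.

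Other genes of the pathway, taken from a list of 25 further pore and transport genes, were mostly lower as well. The list holds POM121C (-0.48 ± 0.03), a near-identical copy of POM121, and its fall cannot be told apart from that of POM121. Of 24 tested, 19 fell, 3 rose and 2 did not pass, with a median of -0.39. Beside this, 32.6% of all tested genes were called lower and 34.5% higher. Of the coding genes at or above the level of the lowest of the 50, 51.8% were called lower and 29.7% higher. NXT1, NXT2 and SNUPN had mean levels below that limit. NXT2, a partner of the mRNA exporter NXF1, had 7.63, 9.28 and 10.1 CPM in DIS3-sh1 and 22.8, 23.8 and 24.2 CPM in Scramble (-1.39 ± 0.09, adjusted p = 1e-14). RANGAP1, which triggers GTP hydrolysis by RAN, had 159, 139 and 146 CPM in DIS3-sh1 and 338, 332 and 335 CPM in Scramble (-1.18 ± 0.03, adjusted p = 5.1e-23). RANBP1, its cofactor, had 144, 147 and 147 CPM in DIS3-sh1 and 285, 274 and 286 CPM in Scramble (-0.95 ± 0.03, adjusted p = 1.56e-22). These were the 3 largest changes of the list, and none of the groups overlapped. The 3 that rose, named after their values were seen, were GLE1 (0.22 ± 0.04), its helicase partner DDX19B (0.43 ± 0.06) and the importin alpha gene KPNA5 (0.13 ± 0.05). The KPNA5 call was lost with DESeq2 (adjusted p = 0.0884) and without 5 of the 6 libraries in turn (0.0533 to 0.0972), the exception being DIS3-sh1 replicate 1. SNUPN, the import adaptor of spliceosomal snRNPs, fell (-0.29 ± 0.09), but was not called without DIS3-sh1 replicate 2 (adjusted p = 0.0505). AKIRIN2, an import factor of the proteasome, was not called (0.04 ± 0.05), but passed with upper-quartile scaling (0.12, adjusted p = 0.0277).

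Genes of the nuclear lamina and envelope went both ways. Of 16 tested, 10 fell and 6 rose, with a median of -0.25. Of the coding genes at or above the level of the lowest of the 50, 51.8% were called lower and 29.7% higher, with a median of -0.13. SYNE1, a giant linker of nucleus and cytoskeleton, was higher, at 47.3, 49.7 and 47.3 CPM in DIS3-sh1 and 22.8, 26.2 and 25.1 CPM in Scramble (0.96 ± 0.06, adjusted p = 5.04e-15). LMNB2, a B-type lamin, was lower, at 266, 253 and 250.2 CPM in DIS3-sh1 and 428, 416 and 430.1 CPM in Scramble (-0.73 ± 0.03, adjusted p = 2.08e-20). CHMP7, which helps seal the envelope after mitosis, was lower too, at 25.7, 27.1 and 27.9 CPM in DIS3-sh1 and 44.7, 42.5 and 43.8 CPM in Scramble (-0.70 ± 0.06, adjusted p = 4.23e-12). The groups were apart for these 3 genes, the largest changes of the list. The increases of SUN2 and LEMD2 and the fall of LEMD3 had adjusted p-values of 0.0432, 0.0321 and 0.0389 and lost their calls in several alternative fits.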

How the data were processed

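Ribosomal RNA was depleted from total RNA, and libraries were made with a stranded total RNA kit, per the labels' protocols. The authors deposited expected counts per gene, which are not whole for many genes. Per the submitters' processing notes, the tools were HISAT2 2.1.0, featureCounts 1.5.1, Bowtie2 2.3.5 and SAMtools, with build hg38, while their roles, the annotation and the use of strand are not given in the sources used here. Of the values above 0, 53.24% to 56.03% per library were whole, and all 50 genes had a fractional value in at least 1 library. Such fractions arise where a read is divided among genes or places, and 26 of the 50 share exon bases with another gene. Of 9 per-sample columns, 3 matched no sample label and were not used, so DIS3-sh2 results and the difference between shRNAs were not computed.

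Rounded counts entered edgeR 4.0.16 under R 4.3.3 (filter on low counts by group, TMM scaling, group as the only term, robust quasi-likelihood F-test, Benjamini-Hochberg over 19591 genes). The SE of a log2 fold change is its size over the root of F. Alternatives were other scalings, DESeq2 1.42.0, limma-voom (limma 3.58.1), no filter, fewer genes, a replicate block and leaving out each library. A symbol was found for 61804 of 61853 gene IDs; exon unions and overlaps came from GENCODE 29, and promoters from RefSeq on GRCh38.p14. A motif matched if its letters occurred on either strand; CACGTG and the NRF1 motif read the same on both. The series describes its replicates as biological. Members and lists were chosen with earlier results of these data known. Named with values in each library were DIS3, the 2 called genes with the largest change per role, called genes against their role and the highest and lowest gene per length, with the 3 largest changes of each further list. The coding background, the importin alpha shares, the sums with near copies, the motifs and promoters and the genes drawn by library were chosen after the values were seen.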

Additional observations from a re-analysis of the deposited data

How the results depend on the processing

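Over 13 alternative fits, 45 to 49 of the 50 genes were called, 39 to 43 lower and 6 higher in each. Of 650 member values, 639 kept their direction and their side of the threshold, and 45 genes did so in every fit. With upper-quartile scaling the signs turned for NUP160 (0.020), NUP205 (0.036), KPNA6 (0.036) and RANBP17 (0.060), none of them called in either fit. With 1 library left out, RANBP17 lay between -0.068 and 0.018, above 0 without DIS3-sh1 replicate 2 or Scramble replicate 2. NUP160 passed with RLE scaling (adjusted p = 0.029), without DIS3-sh1 replicate 3 (0.0413) and once small structural, mitochondrial and ribosomal genes were left out (0.0387), and NUP205 passed with RLE scaling (0.0406) and without DIS3-sh1 replicate 1 (0.0374), as did KPNA6 without that library (0.016). IPO5 and XPOT lost their calls with upper-quartile scaling. The log2 ratio of summed levels was -0.32 for the set, -0.21 for nucleoporins, -0.34 for receptors, -0.69 for importin alpha and -0.68 for the Ran cycle. With upper-quartile scaling these were -0.24, -0.13, -0.26, -0.61 and -0.60, and with RLE scaling they were -0.33 for the set, -0.23 for nucleoporins and -0.69 for the Ran cycle. Falls of at least 1.5-fold numbered 6 among receptors and Ran cycle genes and 0 among nucleoporins with upper-quartile scaling, and 10 to 11 and 1 to 2 with 1 library left out. Every log2 fold change shifts with the scaling by construction. With the replicate number as a block, 47 genes were called (41 lower, 6 higher). Deviations of same-numbered libraries correlated at 0.037, 0.014 and 0.010, and those of differently numbered libraries at -0.021 to 0.008. The same-numbered values were the higher ones, though all were small. The numbers were not taken as a pairing, and whether they mark one was not tested. The alternative with only 2 groups in the fit is the fit reported. The 50 genes had at least 354 counts in every library.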
